A study of Mus musculus with 2 samples.

Results

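The Mir135 genes of the mouse are Mir135b, Mir135a-1 and Mir135a-2, and they were taken by their GENCODE symbols as 3 of the 1973 microRNA (miRNA) genes in the tables. Small RNA under 30 bases was sequenced from whole midbrain of healthy B6NCrl embryos at 15.5 days, with male and female embryos pooled and no mutant allele or treatment named. Replicate 2 was a pool of 62 embryos and replicate 1 a pool of 78, which the labels call biological replicates. There is thus 1 group of 2 libraries, and no contrast between conditions. Whole tissue mixes dopamine progenitors and neurons with all other cells of the midbrain, and fewer cells of a type cannot be told apart from less RNA per cell.

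A miRNA is cut from a hairpin precursor, and the 5p or 3p arm is loaded into Argonaute, where bases 2 to 8, the seed, pair with sites in target mRNAs. Lmx1b encodes a LIM homeodomain factor needed for the isthmic organizer and for midbrain dopamine progenitors, where it acts in a loop with Wnt1. In mouse embryos the miRNA of Mir135a-2 has been reported to lower Lmx1b and Wnt signalling and to limit the dopamine progenitor pool. In human colorectal cancer cells miR-135a and miR-135b are known to act on APC, an inhibitor of the Wnt pathway. No mRNA was measured here, so the levels below could not be set against those of Lmx1b or of any Wnt gene.

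The RefSeq table (GRCm38.p6) matched all 3 hairpins and held 5 mature entries for them, with 4 distinct sequences. They are shown because they decide which reads can be told apart, with the seed in capitals. The arm miR-135a-5p is identical in Mir135a-1 and Mir135a-2, whereas each 3p arm is its own sequence.
miR-135a-5p: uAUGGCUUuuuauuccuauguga
miR-135a-1-3p: uAUAGGGAuuggagccguggcg
miR-135a-2-3p: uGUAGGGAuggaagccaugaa
miR-135b-3p: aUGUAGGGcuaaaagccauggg
For Mir135b the table gave the 3p arm alone, and miR-135b-5p is named only. As background, miR-135a-5p and miR-135b-5p are grouped as a family because they share a seed. The 3p arms printed have 3 different seeds, and no other mature entry of the table had any of the 4 seeds.

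The hairpins are shown next, with the longest stretch that each shares with another of the 3 in capitals.
Mir135b hairpin: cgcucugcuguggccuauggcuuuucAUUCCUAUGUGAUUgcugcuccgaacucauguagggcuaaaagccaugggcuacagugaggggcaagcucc
Mir135a-1 hairpin: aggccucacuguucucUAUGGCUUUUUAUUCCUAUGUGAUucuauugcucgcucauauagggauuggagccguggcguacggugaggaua
Mir135a-2 hairpin: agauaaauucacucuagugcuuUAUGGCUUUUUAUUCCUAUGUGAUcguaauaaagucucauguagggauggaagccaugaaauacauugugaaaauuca
Mir135a-1 and Mir135a-2 share 24 bases, which hold the whole of miR-135a-5p. Mir135b shares at most 14 bases with Mir135a-1 and 13 with Mir135a-2. Of the 20-base windows in a hairpin, 5 of 71 in Mir135a-1 and 5 of 81 in Mir135a-2 recur in the other copy, and 0 of 78 in Mir135b recur in any other miRNA hairpin of the table. Hairpins of Mir135b, Mir135a-1 and Mir135a-2 had 53.6%, 46.7% and 33.0% G and C, and RNAfold gave minimum free energies of -48.7, -43.5 and -34.5 kcal/mol.

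In the genome (mm10), Mir135b lies at chr1:132198088-132198184 on the plus strand, in an intron of the protein-coding gene Lemd1. The same intronic place holds for the overlapping protein-coding model AC124108.1. Mir135a-1 lies at chr9:106154124-106154213 on the plus strand, in an intron of the noncoding gene D030055H07Rik, and opposite an untranslated exon of Glyctk, which encodes glycerate kinase. Mir135a-2 lies at chr10:92072086-92072185 on the minus strand, in an intron of Rmst, a long noncoding RNA known from the developing midbrain. No member had a read on the opposite strand, in either library.

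The depth was 5752476 sense reads of miRNA genes in replicate 2 and 3429704 in replicate 1. Levels are CPM (counts per 1000000 of these sense reads) and are not divided by length, since the libraries hold only fragments under 30 bases. They are shares of reads, and reads without molecular identifiers are not independent molecules. Reads with several mapping places, which the tables keep in a tally of their own, were 43.1% and 43.5% of mapped reads in replicates 2 and 1. Of 9 brain miRNA genes 7 reached 1 CPM in both libraries, with a median of 3.69 CPM. Mir137 of neurons was highest at 11585 and 10800 CPM, followed by Mir128-1 at 1491 and 1403 CPM and Mir128-2 at 917 and 746 CPM. The copies of Mir9 differed, with 512 and 455 CPM for Mir9-3, 1.56 and 1.75 CPM for Mir9-2 and 0 counts for Mir9-1. The hindbrain-type Hox-cluster miRNAs (5 genes) summed to 0.148% and 0.101% of counts. Among muscle miRNAs, Mir208b had 47.6 and 19.0 CPM and Mir206 16.0 and 11.7 CPM, while Mir1a-1, Mir133a-1 and Mir133a-2 had 0 counts in both libraries. Copies of Mir124, a neuronal miRNA, had 0.552 to 3.69 CPM on average, and they too are copies of each other.

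Among the reads counted for genes, Mir135b was the dominant gene of the family and among the most counted miRNAs of the midbrain. Reads of miR-135a-5p, which have 2 perfect places, may be missing from the Mir135a copies. Their part in this order was not tested. Mir135b had 67180 reads in replicate 2 and 32983 in replicate 1, or 11678 CPM (95% exact interval 11591 to 11767) and 9617 CPM (9514 to 9721). Its mean was 10648 ± 1458 CPM (SD, n = 2), and it ranked 17 in replicate 2 and 19 in replicate 1. Replicate 2 was the higher library, and the intervals, which cover counting error only, did not overlap.

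Mir135a-1 had 2783 reads (484 CPM, 466 to 502) in replicate 2 and 1576 reads (459.5 CPM, 437 to 483) in replicate 1. Its mean was 472 ± 17.2 CPM (SD, n = 2), at ranks 125 and 128, and the libraries overlapped within counting error. Mir135a-2, the copy studied with Lmx1b, had 2161 reads (376 CPM, 360.0 to 392) in replicate 2 and 1108 reads (323 CPM, 304 to 343) in replicate 1. Its mean was 349 ± 37.2 CPM, at ranks 142 and 150. All 3 genes were far above the floor of 3 counts, which is 0.522 CPM in replicate 2 and 0.875 CPM in replicate 1.

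**Figure D1:**
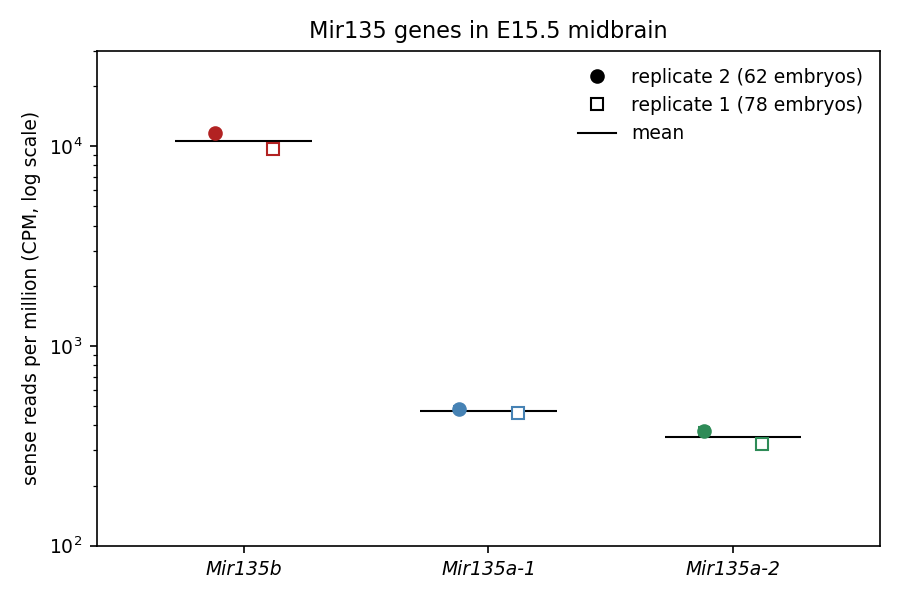
CPM (log scale) of the 3 Mir135 genes in replicate 2 (filled circles) and replicate 1 (open squares), with 95% counting intervals, which are mostly smaller than the points, and the mean as a line. Mir135b sits near 10648 CPM and the Mir135a copies at 472 and 349 CPM.

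Mir135b therefore made up 93.1% (95% exact interval 93.0 to 93.3) of the reads counted for the family in replicate 2 and 92.5% (92.2 to 92.7) in replicate 1. It exceeded the sum of both Mir135a copies 13.6 times (13.2 to 14.0) in replicate 2 and 12.3 times (11.8 to 12.8) in replicate 1, far beyond the spread between the libraries. It exceeded Mir135a-1 24.1 and 20.9 times and Mir135a-2 31.1 and 29.8 times. The whole family held 1.25% and 1.04% of sense counts in replicates 2 and 1. An exact permutation test over 2 libraries cannot reach 0.05, and no p-value is given for these differences.

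Between the copies, Mir135a-1 exceeded Mir135a-2 by 1.29 times (1.22 to 1.36) in replicate 2 and 1.42 times (1.32 to 1.54) in replicate 1. The lower library of Mir135a-1 lay above the higher library of Mir135a-2, so the order was the same in both pools. A read of miR-135a-5p has 2 perfect places, 1 in each copy. The tables tally reads with several places apart, but the counter is not named, so whether all such reads were kept from the genes is not known. The tables do not separate arms, so how many reads miR-135a-5p had, and its part in the gap to Mir135b, was not tested. The levels of Mir135a-1 and Mir135a-2, and their ratio, are therefore uncertain, and they describe the reads that could be placed.

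Such a pair can be set beside other pairs of genes that encode an identical mature arm and also an arm of their own. Of 9 such pairs with at least 100 CPM in the higher gene and 1 CPM in the lower, limits set after the values were seen, the ratio of mean levels within a pair ran from 1.01 to 126.7, with a median of 1.93. The pair of Mir135a-1 and Mir135a-2 stood at 1.35, second lowest after Mir125b-2 and Mir125b-1 at 1.01. Mir181b-2 and Mir181b-1 were at the other end. In all, 53 genes of the 916 with a RefSeq mature sequence shared some arms with another gene and 34 shared all, and they held 2.69% and 0.248% of counts in replicate 2, and 2.76% and 0.256% in replicate 1. Of the 34 genes with all arms shared, 9 had a count, 4 averaged 100 CPM or above and 1 averaged 1000 CPM or above. Of those 53, 13 had a higher mean than Mir135a-1.

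**Figure D2:**
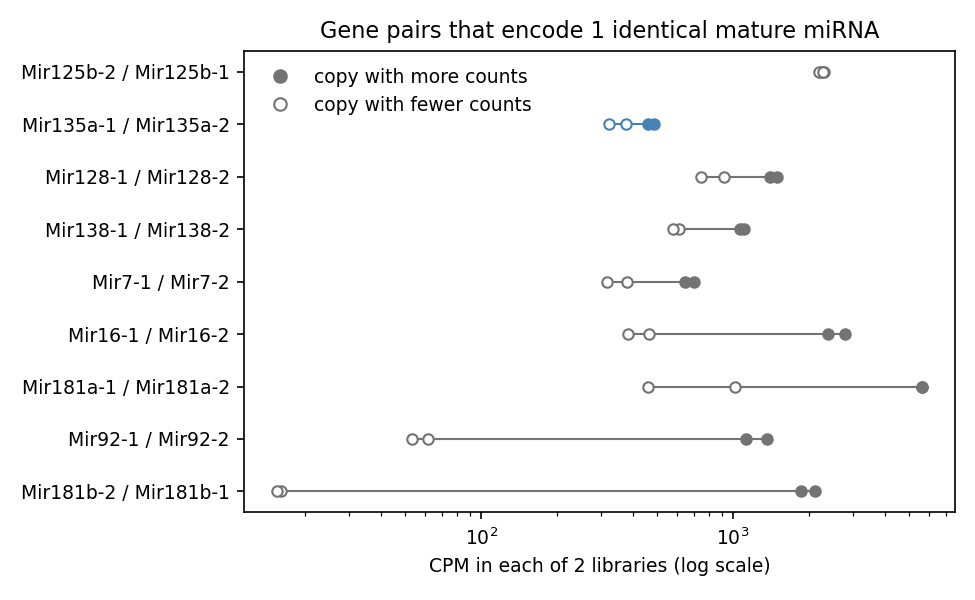
CPM (log scale) of both genes of each of the 9 pairs, ordered by the ratio of their means, with 1 point for each library, filled for the gene with the higher mean and open for the other. The pair of Mir135a-1 and Mir135a-2, in blue, is among the closest at a ratio of 1.35.

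In the order of all miRNA genes by mean CPM, Mir135b was at rank 18, Mir135a-1 at 126 and Mir135a-2 at 144. The ranges of Mir137, a neuronal miRNA (11585 and 10800 CPM), Mir30a (11202 and 9656 CPM) and Mir342 (10179 and 9493 CPM) overlapped that of Mir135b. Those of Mir369 and Mir93 above it and Mir30d below it did not. The same Mir30a, Mir137 and Mir342 were the 3 nearest by distance in log2(CPM + 1) over both libraries, at 0.06, 0.17 and 0.20.

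Mir135a-1 lay between Mir501 (483 and 478 CPM) and Mir195a (470.1 and 461 CPM), and its range overlapped 5 of the 6 genes around it, Mir185 being the exception. By distance, Mir195a (0.04), Mir501 (0.06) and Mir540 (0.06) were nearest to it. Mir135a-2 overlapped all 6 of its neighbours in rank. The gene just below it was Mir1251, with 351 CPM in replicate 2 and 346 in replicate 1. Mir1251 lies at chr10:92137140-92137223, 64955 bases from Mir135a-2 and within the bounds of the same host, Rmst, on the same strand. The gene nearest to Mir135a-2 by distance was Mir7-2 (378 and 316 CPM, distance 0.03), followed by Mir363 (0.09) and Mir1251 (0.14). The 2 libraries of 1 tissue give no correlation, so likeness here is of level only.

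**Figure D3:**
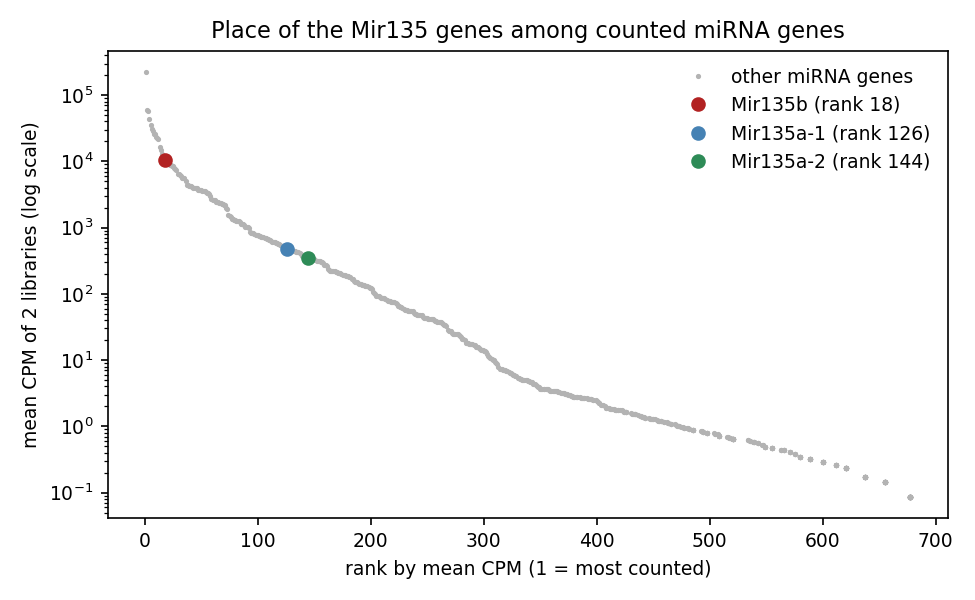
Mean CPM (log scale) against rank for the miRNA genes with a count, with the Mir135 genes in colour. Mir135b lies on the steep upper part at rank 18, and the Mir135a copies at ranks 126 and 144.

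Within 50 kb of a member the annotation holds 1 other miRNA gene, Mirlet7g, 24.6 kb from Mir135a-1 at chr9:106178840-106178927. This let-7 gene, of a family that times development, had 57696 and 60001 CPM, against 484 and 459.5 CPM for Mir135a-1. The sign of the difference between the pools was not shared, with a log2 ratio of replicate 2 over replicate 1 of -0.09 for Mirlet7g and 0.04 for Mir135a-1. For Mir1251 that ratio was -0.01, against 0.18 for Mir135a-2.

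All 3 members had more CPM in replicate 2 than in replicate 1. After TMM scaling with a pseudocount of 1 CPM, the log2 ratio of replicate 2 over replicate 1 was 0.25 (95% counting interval 0.23 to 0.27) for Mir135b, or 1.19-fold. It was 0.18 (0.08 to 0.29) for Mir135a-2 and 0.04 (-0.05 to 0.13) for Mir135a-1. In the two-sided conditional exact binomial test with Benjamini-Hochberg adjustment over 717 genes with a count, Mir135b (adjusted p 2.00e-143) and Mir135a-2 (0.00370) passed 0.05 and Mir135a-1 (0.695) did not. That test covers counting error and compares these libraries, not conditions.

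Of all 717 genes, 19.8% passed the test and 9.76% passed it toward replicate 2. Among the 203 genes averaging 100 CPM or above, 57.1% passed. A count of 2 of 3 members is close to that last share and is no result about the family. Some markers of other cells and regions also differed between the pools. Of 5 Hox-cluster miRNAs 3 passed the binomial test toward replicate 2, against 9.76% of all genes. They were Mir10a at 917 and 649 CPM, Mir10b at 532 and 339 CPM and Mir196b at 30.8 and 19.5 CPM. Mir10a and Mir10b are among the genes averaging 100 CPM or above, of which 57.1% passed in either direction. Mir196a-1 had 0 counts and was not tested, and Mir196a-2 had 6 and 1 counts. By edgeR's exact test those 3 did not pass (adjusted p 0.852, 0.309 and 0.9499). Summed lists in replicates 2 and 1 were 0.151% and 0.115% for choroid plexus and pigment epithelium, 0.0854% and 0.0709% for pituitary, 0.00761% and 0.00432% for liver, and 0.00636% and 0.00306% for muscle. They were 2.16% and 2.49% for endothelium, 0.587% and 0.639% for mural cells and 0.141% and 0.186% for sensory epithelium. White cells and microglia had 0.0319% and 0.0334%, red cells 0.0208% and 0.0197%, and multiciliated cells 0.268% and 0.284%. Log2 ratios within 1 list could differ in sign, with 0.37 for Mir204 and -0.22 for Mir211 of the choroid plexus list. For mural cells they were -0.16 for Mir143 and 0.06 for Mir145a. The counting intervals of Mir211 (-0.74 to 0.28) and Mir145a (-0.17 to 0.29) included 0, so opposite directions within a list were not shown. By the exact binomial test Mir204 and Mir143 passed 0.05, and Mir211 (adjusted p 0.67) and Mir145a (0.92) did not. The part of these markers of other cells and regions in the difference of the Mir135 genes was not tested. A biological coefficient of variation of 10.1% was estimated from the same 2 libraries, so the differences tested also set the spread. With it, and 1 library on each side, edgeR's exact test gave an unadjusted p of 0.234 for Mir135b, 0.392 for Mir135a-2 and 0.850 for Mir135a-1, and an adjusted p of 1 for each. That test called 3 of 717 genes (0.418%), and 31 had an unadjusted p under 0.05. The genes called were Mir205, Mir208b of the muscle list and Mir181a-2 of the dopamine list below, with log2 ratios of 1.62, 1.25 and -1.17. Among the 203 genes, 26 had a larger absolute log2 ratio than Mir135b and the median was 0.12.

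**Figure D4:**
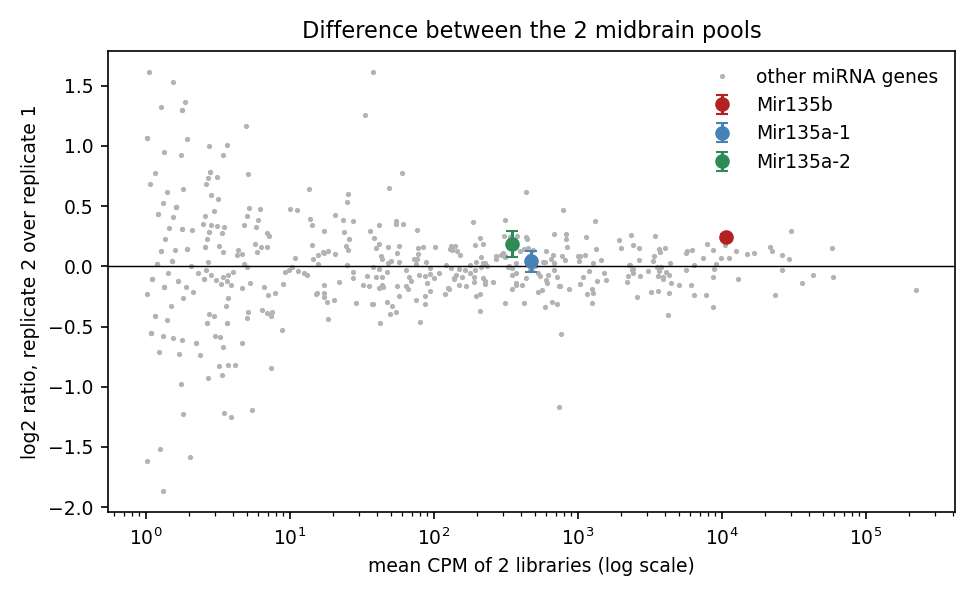
Log2 ratio of replicate 2 over replicate 1 against mean CPM (log scale) for miRNA genes of at least 1 CPM, with 95% counting intervals for the Mir135 genes. All 3 members lie above 0, at 0.25, 0.18 and 0.04 for Mir135b, Mir135a-2 and Mir135a-1.

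Beside other miRNAs studied in midbrain dopamine progenitors and neurons, Mir135b stood high. Of 26 such genes, 1 had a higher mean, the endothelial Mir126a (21568 and 24909 CPM), which has also been studied in dopamine neurons. Next below Mir135b came Mir181a-1 (5643 and 5619 CPM), Mir153 (3495 and 3224 CPM), which acts on the mRNA of alpha-synuclein, and Mir7b (2723 and 2573 CPM). Mir133b, studied with the dopamine factor Pitx3, had 0 and 1 counts, under the floor of 3 counts. The Mir135a copies fell in the middle, with 11 of the 26 above Mir135a-1. The median of the 26 was 44.9 CPM, against 3.46 CPM over all 717 genes with a count, and 22 of them reached 1 CPM in both libraries. By the exact binomial test 5 of the 26 were higher and 3 lower in replicate 2, against 9.76% and 10% of all genes tested.

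Of 19 miRNAs known to act on Wnt pathway genes, 18 were in the table and none had a higher mean than Mir135b. The highest were Mir203 (635 and 568 CPM), Mir27b (528 and 654 CPM) and Mir34c (536 and 553 CPM), and these 3 exceeded Mir135a-1. The 18 together held 0.231% and 0.238% of counts in replicates 2 and 1, against 1.17% and 0.962% for Mir135b alone. Their median was 41.7 CPM, and 2 were higher and 3 lower in replicate 2 by the exact binomial test, near the 9.76% and 10% of all genes tested. Mir142 was not analysed here. Several genes of both lists, such as Mir34b and the Mir200 genes, are the same, and the Mir7, Mir9, Mir124, Mir125b, Mir181a, Mir29b and Mir218 genes are copies whose levels, and so their places beside Mir135b, are uncertain.

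**Figure D5:**
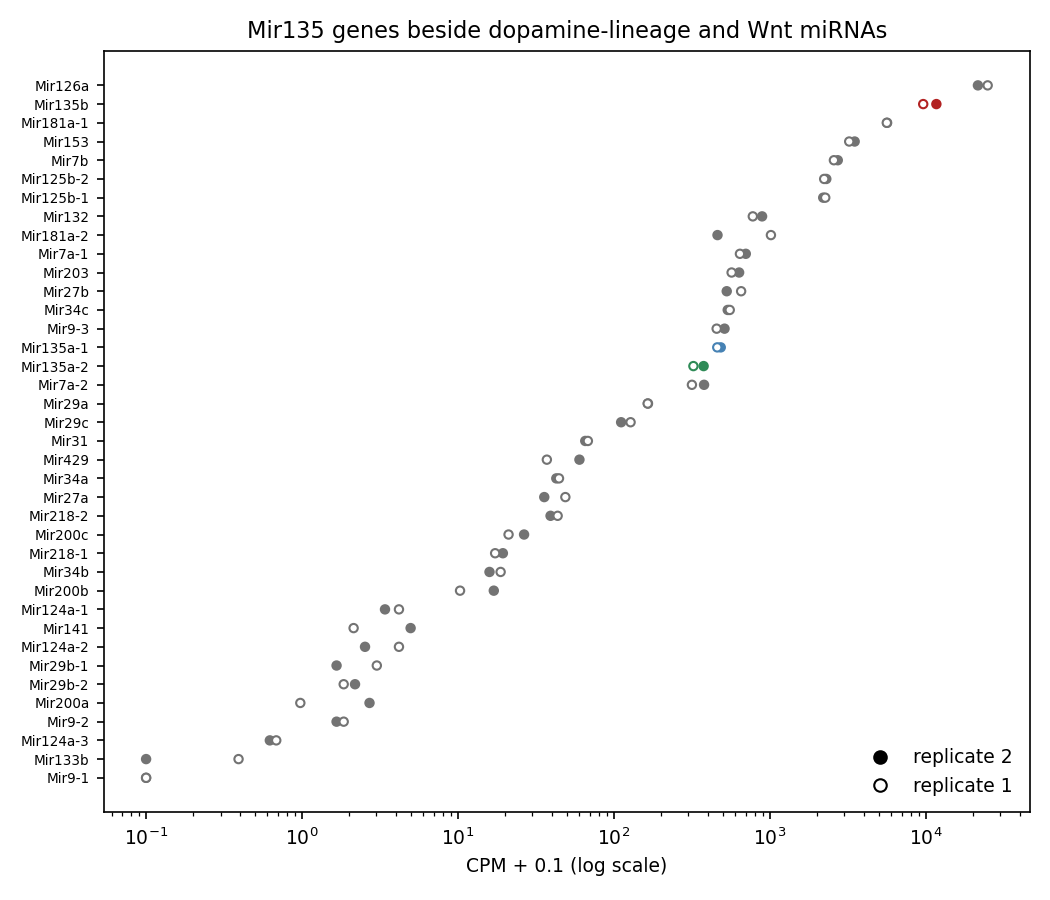
CPM + 0.1 (log scale) in replicate 2 (filled) and replicate 1 (open) of the Mir135 genes, in colour, and of the miRNAs of the dopamine and Wnt lists found in the tables, where Mir7a-1 and Mir7a-2 are the genes annotated as Mir7-1 and Mir7-2. Mir135b is second to Mir126a, and the Mir135a copies lie further down, at means of 472 and 349 CPM.

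The seed of miR-135a-5p gives a way to look at Lmx1b and Wnt genes in sequence, although their RNA was not measured. The longest 3′ UTR of each gene in GENCODE M21 was searched on its sense strand for AAGCCAT, the complement of seed bases 2 to 8, and for AGCCATA, the complement of bases 2 to 7 followed by A. The motifs overlap in AAGCCATA. Of 20956 genes, 12.9% held AAGCCAT, 8.47% AGCCATA and 17.3% either. The 3′ UTR of Lmx1b, of 3671 bases, held no AAGCCAT and 1 AGCCATA, at bases 107 to 113 from the UTR's first base. Of 872 UTRs within 10% of its length, 19.5% held AGCCATA and 41.5% either motif.

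Of 17 Wnt pathway genes, 8 held a motif, and their sites with both motifs were in Wnt3, Dvl2 and Gsk3b. Wnt3 encodes a ligand, Dvl2 a scaffold that passes on the signal and Gsk3b a kinase that marks beta-catenin for decay. The site of Lmx1b and those of both motifs are shown because they hold the only match in Lmx1b and the longest matches in the Wnt genes, with the match in capitals. All lie in 3′ UTRs, and the letters are those of the GENCODE M21 transcripts. On GRCm38 (mm10) they are at chr2:33564512-33564540 (minus strand), chr11:103816594-103816622, chr11:70012134-70012162 and chr16:38243449-38243477 (plus strand).
Lmx1b site: actcttcagacAGCCATAcggtgccctcc
Wnt3 site: cgttctgagaaAAGCCATAgataggtgta
Dvl2 site: aactgtgaagaAAGCCATAgggctccagg
Gsk3b site: cgagctttttaAAGCCATAtagttttaac
A site of only AAGCCAT or only AGCCATA was found in Wnt5a, Lrp6, Dvl1 and Tcf7, and Tcf7l2 held 2 sites of AAGCCAT. Wnt3 and Dvl2 each held a further AAGCCAT apart from the site shown. Wnt1, Axin2, Ctnnb1 and Apc had neither motif in the UTR searched, nor had any of 10 dopamine factors, among them Lmx1a, Foxa2, Otx2, En1, Nr4a2 and Pitx3. Among UTRs of like length, the share with a motif was 55.3% for Gsk3b, 48.7% for Wnt5a, 46.8% for Lrp6, 30.2% for Dvl2, 28.7% for Tcf7l2, 24.3% for Wnt3, 19.9% for Tcf7 and 13.5% for Dvl1. It ran from 9.66% to 55.3% over the 17 Wnt genes, and from 4.32% to 24.8% over the 10 dopamine factors, whose UTRs were 333 to 1980 bases long. A match is a stretch of letters and was not tested as a binding site.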

How the data were processed

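Per the labels, RNA under 30 bases was sequenced from 2 pools of mouse midbrain. The authors deposited whole read counts per miRNA gene without normalization, in columns for either strand, the sense strand and the opposite strand. Per the deposited readme, these are on mm10 with GENCODE M4. For the aligner and counter, the sources used here give no name. The 4 rows that name no gene were kept out of totals. Unmapped reads were 16.9% of replicate 2 and 13.4% of replicate 1. Reads with several places were 35.8% and 37.7%, and reads in no gene 3.43% and 3.57%.

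Symbols and coordinates came from GENCODE M21 on the same assembly, which matched 1894 of 1973 identifiers. CPM used the sense total, so 1 read is 0.174 CPM in replicate 2 and 0.292 in replicate 1. Intervals are exact Clopper-Pearson at 95% and cover counting error only. Ratios used TMM of edgeR 4.0.16 and a conditional exact binomial test in scipy 1.17.1. The test was tried on simulated data with counting error alone, so that trial does not cover spread between pools. A quasi-likelihood test had no contrast to test. RNAfold was ViennaRNA 2.7.2.

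Members and lists were chosen with earlier results of these data known. The genes named are the members, the 3 above and the 3 below each by mean CPM, the 3 nearest by distance, miRNA genes within 50 kb, seed sharers and list members. Pair limits, copy pairs, the UTR search and its genes were added after the tables were read. List symbols were matched by symbol, RefSeq position or RefSeq synonym. Alternatives were other count columns, denominators, scalings, filters, pseudocounts, detection limits, tests and leaving out each replicate.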

Additional observations from a re-analysis of the deposited data

How the results depend on the processing

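No paired analysis was possible because there is 1 group. Of 82 values recomputed, 68 kept their side of the threshold, moved by less than the replicate SD or, for counts of genes, stayed within a set factor. No log2 ratio changed sign. Part of that tally was fixed in advance and is no evidence of stability. With 2 libraries, leaving out 1 always moves a mean by less than the SD. Ratios between members could not move without regard to strand, since no member had a read on the opposite strand. With all reads in the tables as the CPM total, Mir135b had 4743, Mir135a-1 210.4 and Mir135a-2 156 CPM, and the family 0.511%. Without the most counted gene, Mir99a, in the total they had 13693.5, 607 and 449 CPM, and the family 1.48%. Both alternatives change the denominator alone, so ratios between members stayed as they were. Under edgeR's exact test, with a 10% or an estimated coefficient of variation, the log2 ratios were 0.25 for Mir135b and 0.18 for Mir135a-2, and neither passed (adjusted p 1). Their adjusted p ranged from 3.45e-185 to 1 and from 0.000326 to 1 over all alternatives. Those tests called 3 genes, with either coefficient of variation, against 142. They compare 1 library with 1 library, the estimated value comes from that same pair and nearly equals 10%, so they are no independent check. Leaving out each replicate gave 9617 to 11678 CPM for Mir135b, 459.5 to 484 for Mir135a-1 and 323 to 376 for Mir135a-2, and 12.3 to 13.6 for the ratio of Mir135b to the copies. With 2 libraries, the SD of any level is itself poorly known.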
